A study of Mus musculus with 2 samples.

Results

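The respiratory chain genes encode the subunits of the protein complexes that carry out oxidative phosphorylation in mitochondria. They were chosen by gene symbol: probe sets with 1 annotated symbol of the form Nduf followed by a, b, c, s or v and a number (complex I), Sdha to Sdhd (complex II), Uqcr or Cyc1 (complex III), Cox4 to Cox8 followed by a letter (complex IV) and Atp5 (complex V). The rule found 165 of 45037 probe sets, for 82 of 18193 genes. Complex I had 35 of these genes, complex II 4, complex III 9, complex IV 17 and complex V 17. The other 9 probe sets with a matching symbol carried several symbols and were left out.

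The tissue was the epididymal fat pad, a visceral white adipose depot, of male C57BL/6 mice. One sample came from a mouse given a high-fat diet for 7 weeks and the other from a mouse kept on normal chow. The labels put the start of the dietary challenge at 9 weeks of age, after regular food, and describe no further allele or agent. Each diet had 1 Affymetrix array, so there is no spread between animals, no test was possible, and "higher" and "lower" describe these 2 arrays only.

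Complex I takes electrons from NADH and complex II takes them from succinate, and both pass them to ubiquinone. Complex III hands them on to cytochrome c, and complex IV, cytochrome c oxidase, passes them to oxygen. Complexes I, III and IV pump protons across the inner membrane, and complex V, the ATP synthase, uses the proton gradient to make ATP. Most subunits are encoded in the nucleus and a few, all of them central to the machinery, in mitochondrial DNA. In white fat, mitochondria supply the ATP and intermediates used to build and break down triglyceride, and in brown fat the chain runs uncoupled to give heat.

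A floor was set at the 40th percentile of each array, 27.9 on the high-fat diet and 28.6 on chow. Probe sets that reached it on at least 1 array are called measured, and lower values were raised to it. Each gene was represented by its measured probe set of highest mean log2 signal. Of the 82 genes 80 were measured, of which 79 cleared the floor on each array and Cox7a1 on the high-fat diet array only. The other 2, Cox7b2 and Cox7c, lay below the floor on both arrays. Cox7b2, a testis form, had intensities of 5.1 on the high-fat diet and 2.4 on chow. The probe sets of Cox7c had 4.3 and 9.8 on the high-fat diet and 6.9 and 20.7 on chow. An intensity below the floor does not show that a gene is silent in this tissue. All values are the deposited linear intensities, and differences are log2 of high-fat diet minus log2 of chow. Levels of different probe sets cannot be ranked, because each binds with its own efficiency.

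As a set and on the deposited scale, the respiratory chain genes had a median near 0, and no gene was 2-fold different. Of the 80 measured genes 43 were lower on the high-fat diet, 36 higher and 1 equal, beside 52.9% lower and 46.8% higher among all 14066 measured genes. Their median difference was -0.018, beside -0.022 over all measured genes, and its sign turned under median centring. The summed intensity of the 80 genes was 122642.7 on the high-fat diet and 122167.9 on chow. This was 3.23% of the summed intensity of all measured genes on the high-fat diet and 3.30% on chow. In a whole tissue, fewer cells of a type and less RNA per cell cannot be told apart.

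At a difference of 0.32 or more on the log2 scale, 5 of the 80 genes were lower and 4 higher, beside 18.5% lower and 15.8% higher among all measured genes. At 2-fold or more, in either direction, the share among all measured genes was 2.52%. Most of the respiratory chain genes had strong signals, 69 of 80 with a mean intensity of 400 or more. Among all 2007 genes that bright, 44.1% were lower and 55.9% higher. A difference of 0.32 or more was found downward in 8.32% of them and upward in 14.6%, and one of 2-fold in 1.59%. Of the 69 bright respiratory chain genes 39 had a lower and 30 a higher signal, and the median was -0.027, beside 0.028 for all genes that bright. Centring each difference on the trend with signal level (lowess) gave 49 lower and 31 higher among all 80 genes, with a median of -0.075. The share of lower genes was then 61.3% among the 80 and 50.5% among all measured genes. Under quantile normalization it was 63.7% and 50.9%, and under median centring 48.8% and 50.1%.

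The probe sets of a gene give the only measure of error here. Around the mean of its gene, the difference of a probe set had a pooled SD of 0.20 for genes of mean intensity 400 or more, 0.29 between 100 and 400 and 0.37 below 100. This SD holds no difference between animals. Among the measured respiratory chain genes 22 (27.5%) differed by more than 1 such SD, 13 of them lower and 9 higher, beside 35.7% of all measured genes. Among all genes of mean intensity 400 or more the share was 40.6%, with 337 lower and 477 higher. Among respiratory chain genes for which at least 2 probe sets cleared the floor on each array, 43 in all, 12 were lower in all of them, 9 were higher in all and 22 were mixed. The same counts were not made over all genes, so whether this agreement is particular to these genes cannot be said.

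**Figure D1:**
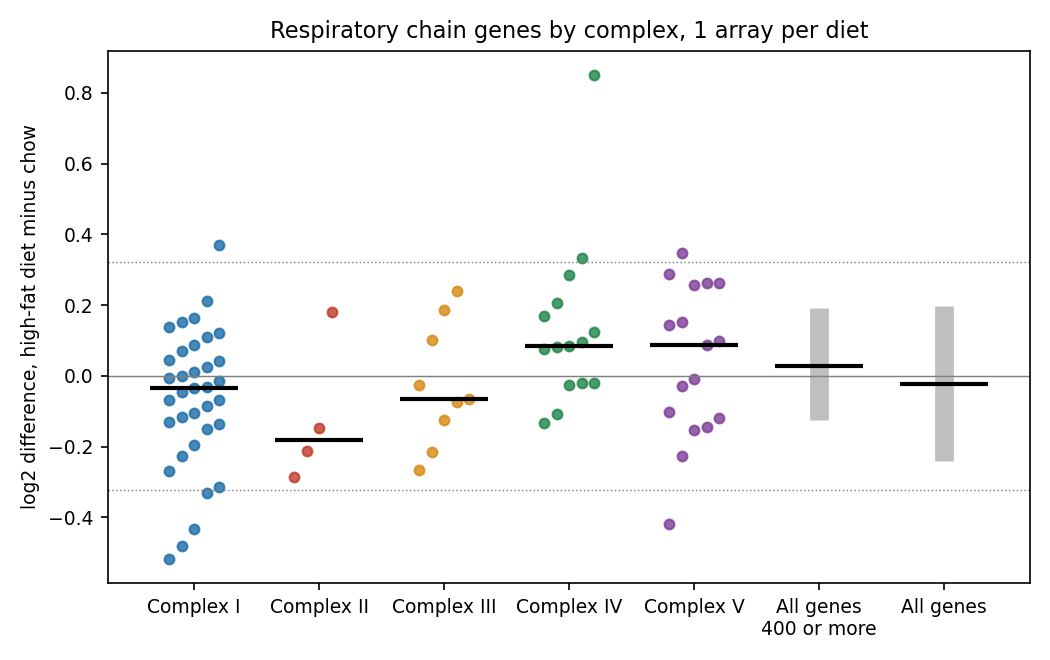
Log2 difference between the high-fat diet array and the chow array (vertical axis) for each measured gene of complexes I to V (points, black line the median), beside all measured genes of mean intensity 400 or more and all measured genes (grey bar the 25th to 75th percentile, black line the median). Dotted lines mark 0.32 in either direction. The medians are -0.03, -0.18, -0.07, 0.08 and 0.09 for complexes I to V, and Cox8b of complex IV stands above the rest at 0.85.

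Promoter sequences are shown for 4 genes, picked from a larger set of genes in which the motifs were marked. The 4 are Ndufa5, the most strongly lower gene, Atp5g3, a higher gene of the ATP synthase ring, Cox6a1 and Cox8b. Cox6a1 is a subunit form used in most tissues, and its difference was within the probe SD. Cox8b is a muscle and brown fat form and the most strongly higher gene. The sequences are the 250 bases before the annotated start, from RefSeq on build GRCm38.p6, written 5′ to 3′ on the gene's strand. The windows are chr6:24527691-24527940 on the minus strand for Ndufa5 (the upstream of its 2 annotated starts), chr2:73911327-73911576 on the minus strand for Atp5g3, chr5:115348959-115349208 on the minus strand for Cox6a1 and chr7:140900447-140900696 on the minus strand for Cox8b. Capitals mark matches, on either strand, to the NRF1 palindrome, the ETS core CCGGAAG, the CCAAT box CCAAT and the ERR motif TCAAGGTCA, which are motifs of factors known to act on mitochondrial genes or on promoters in general.
Ndufa5: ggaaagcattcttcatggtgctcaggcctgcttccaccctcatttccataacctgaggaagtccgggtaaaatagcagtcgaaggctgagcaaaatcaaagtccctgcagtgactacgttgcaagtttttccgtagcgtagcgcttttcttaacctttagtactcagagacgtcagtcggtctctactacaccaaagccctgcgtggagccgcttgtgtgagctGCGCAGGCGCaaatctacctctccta
Atp5g3: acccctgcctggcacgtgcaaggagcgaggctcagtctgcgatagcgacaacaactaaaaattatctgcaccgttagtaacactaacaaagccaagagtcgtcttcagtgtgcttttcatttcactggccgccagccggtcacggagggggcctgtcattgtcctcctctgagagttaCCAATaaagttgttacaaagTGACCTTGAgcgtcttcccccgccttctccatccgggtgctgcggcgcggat
Cox6a1: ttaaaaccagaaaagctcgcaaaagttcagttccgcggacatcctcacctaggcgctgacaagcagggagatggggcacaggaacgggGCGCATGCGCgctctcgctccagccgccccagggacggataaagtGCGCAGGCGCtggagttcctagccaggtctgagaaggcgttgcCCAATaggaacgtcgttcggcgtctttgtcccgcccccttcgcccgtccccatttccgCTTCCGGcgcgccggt
Cox8b: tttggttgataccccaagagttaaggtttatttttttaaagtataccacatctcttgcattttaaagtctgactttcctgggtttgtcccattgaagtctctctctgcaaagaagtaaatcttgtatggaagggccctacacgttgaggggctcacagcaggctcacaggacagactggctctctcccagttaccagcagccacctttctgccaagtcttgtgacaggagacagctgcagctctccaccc
In the windows shown, Ndufa5 has the NRF1 palindrome 26 bases before the start, and Atp5g3 a CCAAT box and an ERR motif. Cox6a1 has the NRF1 palindrome in 2 places, a CCAAT box and an ETS core, and Cox8b none of these letters. Of the marked genes not shown, Ndufs7, Ndufv2, Ndufa12 and Cox7a2 had no match in the 250 bases before the start. Atp5md, Cox7a1 and Cox8a had matches to the CCAAT box alone. Atp5g3 also has the NRF1 palindrome once the 50 bases after the start, not shown, are included. Of the measured respiratory chain genes 64 matched a promoter in the RefSeq table. Over all 300 bases (250 before and 50 after the start), the NRF1 palindrome was present in 15 of 64 (23.4%), beside 5.19% of all 27025 genes in the table. The ETS core was present in 17 (26.6%, beside 9.93%), the CCAAT box in 27 (42.2%, beside 41.1%) and the ERR motif in 2 (3.12%, beside 0.466%). By complex, the NRF1 palindrome was present in 5 of 31 genes of complex I, 2 of 3 of complex II, 1 of 5 of complex III, 1 of 10 of complex IV and 6 of 15 of complex V. In the 250 bases before the start, taken from 1 promoter per gene, these genes were also richer in G and C. Their median was 57.6% against 52.0% over the table, and the part of base composition in the motif shares was not tested. A match is a description of letters and not a binding site.

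Complex I, the NADH dehydrogenase, had mostly lower genes in 1 arm and genes in both directions in the other, and no test compares the arms. Its peripheral arm stands in the matrix and holds the module that oxidises NADH (N) and the module that reduces ubiquinone (Q), while the membrane arm holds the proton pumps. Of the 14 measured genes of the matrix arm 12 were lower on the high-fat diet and 2 higher, with a median of -0.13. Of the 18 in the membrane arm 8 were lower and 10 higher, with a median of 0.026, a sign that turned to -0.057 under quantile normalization and -0.044 under lowess centring, with 11 lower and 7 higher under each. The matrix arm median ran between -0.11 and -0.22 over the settings of scaling, all with the same sign, with all 14 genes lower under quantile normalization and lowess centring and 11 under median centring. Counted by probe set, 28 of 33 were lower in the matrix arm and 15 of 31 in the membrane arm, beside 52.4% of all 20947 single-gene probe sets that cleared the floor on each array. As a whole, the 35 genes of complex I had 21 lower, 13 higher and 1 equal, with a median of -0.034, and 26 lower and 9 higher under quantile normalization and under lowess centring.

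The Q module, which passes electrons through iron-sulfur clusters to ubiquinone, was lower in all 5 measured genes, with a median of -0.20. Ndufa5, an accessory subunit of this module, had an intensity of 264.9 on the high-fat diet and 379.3 on chow, 1.43-fold lower. Its other probe set had 243.2 on the high-fat diet and 367.9 on chow. Both probe sets of Ndufa5 were thus lower by more than the probe SD of 0.29 for this signal level. Ndufs7, the subunit with the last iron-sulfur cluster before ubiquinone, had 740.3 on the high-fat diet and 1032.7 on chow, 1.40-fold lower. Its other probe set had 321.1 on the high-fat diet and 393.1 on chow and was also lower. Ndufs3, a core subunit next to it, had 864 on the high-fat diet and 990.4 on chow. Ndufs8, another iron-sulfur subunit, showed how far probe sets can part. In its brightest probe set it had 1234.9 on the high-fat diet and 1309.1 on chow, and 5 of its 6 probe sets were lower, from -0.61 to 0.051. Ndufa9, an accessory subunit with a bound nucleotide cofactor, had 958.3 on the high-fat diet and 980.8 on chow.

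The N module, where NADH gives its electrons to a flavin, was lower in 7 of 9 measured genes, with a median of -0.13, in all 9 under quantile normalization and lowess centring and in 6 under median centring. Ndufa6, an accessory subunit that binds the mitochondrial acyl carrier protein, had 486.8 on the high-fat diet and 657.2 on chow, 1.35-fold lower in its only probe set. Ndufv2, an iron-sulfur subunit beside the flavin, had 1006.4 on the high-fat diet and 1265.4 on chow, 1.26-fold lower. All 3 probe sets of Ndufv2 were lower, at -0.33 to -0.12. Ndufa12, an accessory subunit at the junction of the modules, had 1105.9 on the high-fat diet and 1374.8 on chow. Its 3 probe sets above the floor differed by -0.32 to -0.19, so they shared a direction. Ndufv1, which binds NADH and the flavin, was almost level in its representative probe set, with 811.2 on the high-fat diet and 820 on chow. Its other 2 probe sets were lower, the lowest at -0.23. Ndufs1, the largest iron-sulfur subunit, had 409.8 on the high-fat diet and 448.2 on chow, Ndufv3 had 1690.1 on the high-fat diet and 1859.2 on chow, and Ndufs4 had 405.2 on the high-fat diet and 435.9 on chow. The 2 higher genes differed little: Ndufa2 had 809.4 on the high-fat diet and 795.5 on chow, and Ndufa7 had 2312.3 on the high-fat diet and 2240.8 on chow. The 5 probe sets of Ndufa7 ran from -0.25 to 0.14, with 3 lower and 2 higher.

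In the membrane arm, the genes of the proximal part, near the joint with the matrix arm, had a median of 0.0029, with 4 lower and 4 higher, but 7 of 8 lower under quantile normalization and under lowess centring, and 6 of 8 higher with the mean of all probe sets. Ndufa13, also known as a cell death regulator, was the exception in size, with 1654.3 on the high-fat diet and 1992.7 on chow, 1.20-fold lower. Ndufs5 had 874.6 on the high-fat diet and 786.5 on chow, and Ndufa1 had 2805.2 on the high-fat diet and 2669.6 on chow. The other 5 genes, Ndufa3, Ndufa8, Ndufa10, Ndufc1 and Ndufc2, lay within 0.1 of level in their representative probe sets. Other probe sets were higher by 0.15 for Ndufa3, 0.16 for Ndufc1 and 0.27 for a weak one of Ndufa10. Of the distal part, which holds the outermost pumps, 6 of 10 genes were higher, with a median of 0.098, which turned to -0.0076 with each gene's least different probe set. Ndufb7 had 1173.4 on the high-fat diet and 1014 on chow, 1.16-fold higher, but its other probe set was lower, at -0.071. Ndufb6 had 1434.5 on the high-fat diet and 1280.1 on chow, and both its probe sets were higher. Ndufb2 had 1156 on the high-fat diet and 1051.5 on chow. Ndufb8 went the other way, with 1727.5 on the high-fat diet and 2020.9 on chow, 1.17-fold lower, as did Ndufb9 with 2439.8 on the high-fat diet and 2709.4 on chow, again lower in both measured probe sets. Ndufb3, Ndufb5, Ndufb10 and Ndufb11 lay between -0.067 and 0.11.

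Ndufb4 had the largest positive difference of complex I, but from a weak probe set near the floor, with 39.4 on the high-fat diet and 30.5 on chow. Probe sets shared by Ndufb4 and its near copies Ndufb4b and Ndufb4c, which the rule leaves out, had 1205.9 and 947.5 on the high-fat diet and 1080.4 and 806.7 on chow. They too were higher on the high-fat diet, and which copy they report is uncertain. Of the genes to which the lists used here give no module, Ndufa4, now counted as a subunit of cytochrome c oxidase, had 1761.8 on the high-fat diet and 1908.3 on chow. Ndufa4l2, a related protein known to be induced by hypoxia, had 136 on the high-fat diet and 125 on chow. Ndufb1 had 71.7 on both arrays. Probe sets left out because they name several genes gave 1005 on the high-fat diet and 1033.7 on chow for Ndufa11 and its copy, and 753.7 on the high-fat diet and 774.5 on chow for Ndufs6 and its copy.

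**Figure D2:**
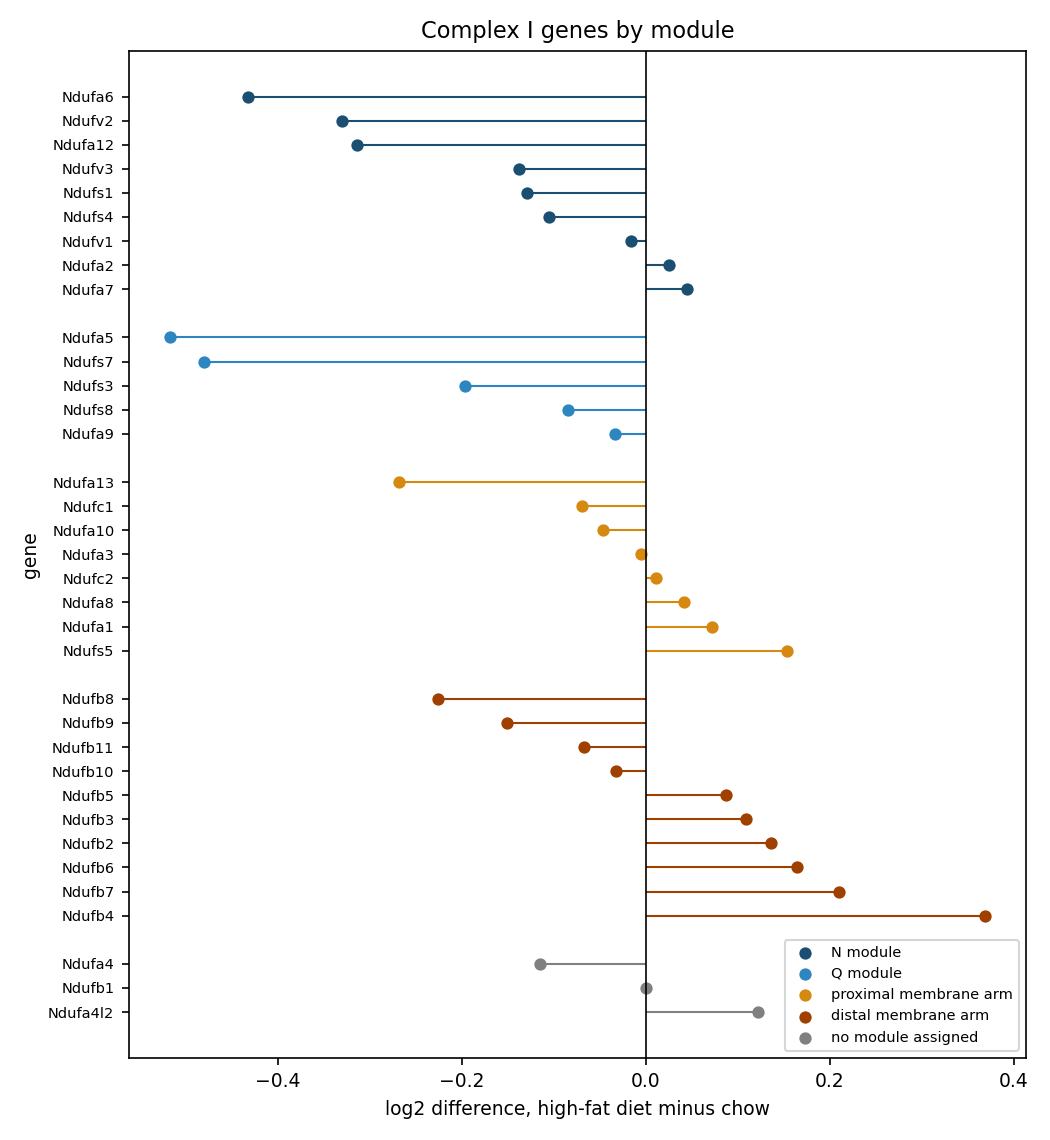
Log2 difference between the high-fat diet and chow arrays (horizontal axis) for each measured complex I gene, grouped by module from top to bottom. In the N and Q modules 12 of 14 points lie left of 0, down to -0.52 for Ndufa5, while points of the membrane arm lie on both sides.

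Complex II, succinate dehydrogenase, is also an enzyme of the citric acid cycle and is encoded wholly in the nucleus. Its catalytic subunits were lower. Of its membrane anchors, 1 was higher and the other had probe sets in both directions. Sdha, the flavoprotein that oxidises succinate, had 1695.3 on the high-fat diet and 2065.5 on chow, 1.22-fold lower, and its 3 measured probe sets were all lower, at -0.29 to -0.094. Sdhb, the iron-sulfur subunit, had 1249.7 on the high-fat diet and 1385 on chow in its only probe set. Sdhc, a membrane anchor, had 772.1 on the high-fat diet and 681.7 on chow, and both its probe sets were higher, by 0.18 and 0.31. Sdhd, the other anchor, had 663.5 on the high-fat diet and 769.3 on chow, but its weaker probe set had 120.9 on the high-fat diet and 74.4 on chow, so the probe sets of Sdhd disagree. With 3 of 4 genes lower the median was -0.18, and it turned to 0.048 when all measured probe sets of a gene were averaged.

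Complex III, the cytochrome bc1 complex, had lower values in its large subunits, while those of its small subunits depended on the probe set. This split into large and small subunits was chosen after the values were seen and has no test. Uqcrc2, a core protein facing the matrix, had 927.4 on the high-fat diet and 1116.2 on chow, 1.20-fold lower, and its other probe set was lower by a like amount, 464 on the high-fat diet and 553.9 on chow. Cyc1, cytochrome c1, which gives electrons to cytochrome c, had 1579.9 on the high-fat diet and 1835.8 on chow, 1.16-fold lower. Uqcrc1, the other core protein, had 1079.8 on the high-fat diet and 1177.3 on chow. These 3 genes and Uqcrfs1, the Rieske iron-sulfur protein with 1166.4 on the high-fat diet and 1220.7 on chow, were all lower, with a median of -0.17. Of the 5 small subunits 3 were higher, with 2 higher under quantile normalization or with the least different probe sets, and all 5 with the mean of all probe sets or plain ones only. Uqcr10 had 919.9 on the high-fat diet and 779.2 on chow, 1.18-fold higher, although 1 of its 3 probe sets was lower, at -0.082. Uqcr11 had 1577.4 on the high-fat diet and 1386.8 on chow, and Uqcrh, the hinge protein, had 1430.7 on the high-fat diet and 1332.6 on chow. Uqcrb, which helps to form the ubiquinone pocket, had 4052 on the high-fat diet and 4269.3 on chow, but 913.8 on the high-fat diet and 770.7 on chow in its other probe set. Uqcrq had 1386.3 on the high-fat diet and 1412.1 on chow, and its 3 weak probe sets ran from -0.45 to 0.53. Of all 9 genes of complex III, 6 were lower and 3 higher, and 7 lower under quantile normalization; their median was -0.066 and turned to 0.064 with the mean of all probe sets and to 0.19 with plain probe sets only.

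Nuclear genes of core, catalytic or large subunits of complexes I to III were also set side by side. The 6 measured core genes of complex I (Ndufs1, Ndufs3, Ndufs7, Ndufs8, Ndufv1 and Ndufv2), Sdha and Sdhb, and the 4 large subunits of complex III were 12 of 12 lower on the high-fat diet, with a median of -0.17. The share of lower genes was 52.9% among all measured genes and 44.1% among those of mean intensity 400 or more. This grouping of 12 genes was chosen after the values were seen and has no test. It leaves out the anchors of complex II, Sdhc, higher by 0.18 and 0.31 in its probe sets, and Sdhd, whose probe sets disagree. It also leaves out the core subunits of mitochondrial DNA, of which ND5 of complex I was higher, with 6408.9 on the high-fat diet and 5615.3 on chow. Under median centring, or with each gene's least different probe set, 11 of the 12 were lower, and under quantile normalization and lowess centring all 12. With plain probe sets, 9 of the 9 that remain were lower. The differences ran from -0.48 in Ndufs7 to -0.016 in Ndufv1, so each gene on its own was within 1.40-fold. The 26 supernumerary genes of complex I that have a module had 14 lower and 12 higher, with a median of -0.019.

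**Figure D3:**
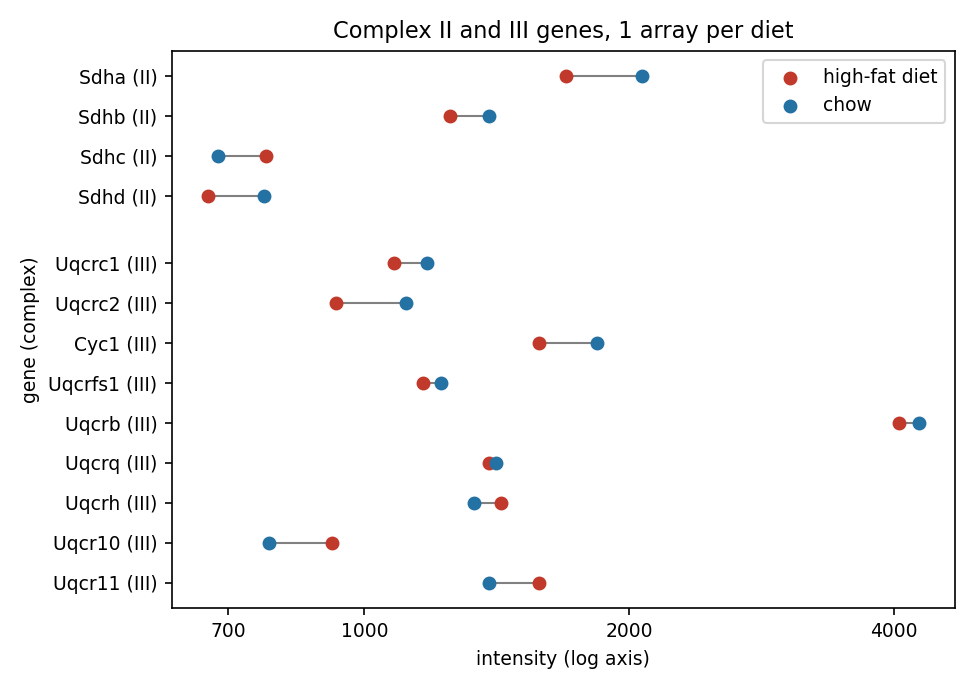
Intensity on a log axis for each gene of complexes II and III on the high-fat diet array and the chow array, joined by a line, with genes down the page. Signals of different genes cannot be ranked. The high-fat diet point lies left of the chow point for Sdha, Sdhb, Sdhd, Uqcrc1, Uqcrc2, Cyc1 and Uqcrfs1, and for the small subunits Uqcrb and Uqcrq. For Sdhc, Uqcrh, Uqcr10 and Uqcr11 it lies right of the chow point.

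Complex IV, cytochrome c oxidase, has its catalytic core encoded in mitochondrial DNA, and the nuclear genes make the surrounding subunits, several of which exist as tissue forms. Of 15 measured genes 10 had a higher signal on the high-fat diet and 5 a lower one. Higher genes made up 46.8% of all measured genes and 55.9% of those with a mean intensity of 400 or more. The median of complex IV was 0.083 and ran between 0.014 and 0.12 over the settings. With the mean of all probe sets 8 were higher and 7 lower. The 10 include Cox5a, Cox6c, Cox7a2l and Cox8c, whose probe sets differ in sign, and Cox7a1, above the floor on the high-fat diet array only. Among the 5 forms used in most tissues, 3 were higher, and 4 under median centring. Cox6b1, which helps to join the paired oxidase units, had 3190.3 on the high-fat diet and 2767.2 on chow, 1.15-fold higher, with both probe sets higher. Cox6a1 had 5585.8 on the high-fat diet and 4966.7 on chow, 1.12-fold higher, also in both probe sets. Cox7a2 had 3748.6 on the high-fat diet and 3438.7 on chow. Cox4i1, a regulatory subunit that binds ATP, was level with 3728.5 on the high-fat diet and 3779.8 on chow, and Cox8a was lower with 2847.9 on the high-fat diet and 3121.7 on chow, in all 3 of its probe sets. Cox7a2l, a factor of supercomplex formation, had 921.7 on the high-fat diet and 863.1 on chow, but another probe set had 791 on the high-fat diet and 914 on chow. Cox6c had 3618.3 on the high-fat diet and 3416 on chow in its brighter probe set and 1113.8 on the high-fat diet and 1274.3 on chow in the other.

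Cox5a and Cox5b, which contact the catalytic core, had probe sets that did not share a direction. Cox5b had 2855.5 on the high-fat diet and 2909.7 on chow in its representative probe set, and 2583 on the high-fat diet and 1881.1 on chow in another, so its 5 measured probe sets ran from -0.18 to 0.68. Cox5a had 1883.9 on the high-fat diet and 1788.8 on chow, with 2 of 3 probe sets higher. No direction can be given for either gene.

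The muscle forms of complex IV, which are also abundant in brown fat, were all higher in signal on the high-fat diet, but only Cox8b by more than the probe SD. Cox8b had 188.1 on the high-fat diet and 104.3 on chow, 1.80-fold higher in its only probe set. This was the largest difference among the respiratory chain genes above the floor on both arrays, and it exceeded the probe SD of 0.29 for this signal level. Cox7a1 had 36 on the high-fat diet and 14.5 on chow, where it lay below the floor. With the chow value raised to the floor, Cox7a1 was 1.26-fold higher. That difference of 0.33 is within the probe SD of 0.37 for signals this weak. Cox6a2 had 43 on the high-fat diet and 35.3 on chow, both close to the floor, with a difference of 0.28 that is within the probe SD of 0.37. Markers of the tissues these forms are known from did not share a direction. Of 8 skeletal muscle markers, 5 (Myh4, Mb, Tnnt3, Tnnc2 and Mylpf) lay below the floor on both arrays. Acta1 had 521 on the high-fat diet and 608.2 on chow, Ckm had 64.1 on the high-fat diet and 55.1 on chow, and Pvalb had 37.3 on the high-fat diet and 72.9 on chow. The summed signal of all 8 was 668.5 on the high-fat diet and 792 on chow. Of 7 brown and beige fat markers, Ucp1, the uncoupling protein, lay below the floor with 4.5 on the high-fat diet and 4.2 on chow. Cidea was above it on chow alone, with 6.5 on the high-fat diet and 33 on chow. Elovl3 had 54.1 on the high-fat diet and 29.6 on chow, and Otop1 was above the floor on the high-fat diet alone, with 32.3 on the high-fat diet and 6.5 on chow. Dio2 was lower, with 68.6 on the high-fat diet and 97.2 on chow, as was Ebf2 in all 3 probe sets, with 111.2 on the high-fat diet and 157.4 on chow in the brightest. Prdm16 was close to the floor, with 34 on the high-fat diet and 35.7 on chow. With 4 of the 6 measured markers lower, the sum of all 7 was 311.2 on the high-fat diet and 363.6 on chow. The part of such cells in the Cox8b difference was not tested beyond these values.

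The other tissue forms were weak or unclear. Cox4i2, a form known from lung and from low oxygen, had 66.7 on the high-fat diet and 67.7 on chow. Cox6b2, a testis form, had 32.4 on the high-fat diet and 34.9 on chow, just above the floor. Cox8c, another testis form, had 365.1 on the high-fat diet and 344.9 on chow in its brighter probe set but 76.3 on the high-fat diet and 151.8 on chow in the other, a difference of -0.99, so no direction can be given for Cox8c. Among 6 testis germ cell markers, 4 (Prm1, Tnp1, Tnp2 and Ldhc) lay below the floor on both arrays. Prm2 and Odf1 were above it on the high-fat diet array only, with 54 and 32.4, against 24.4 and 18.1 on chow.

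Complex V, the ATP synthase, had members in both directions. Of 17 genes 9 were higher and 8 lower, with a median of 0.087 that turned to -0.014 under quantile normalization. The rotary head (F1), where ATP is formed, had 3 of 5 genes lower, but 3 of 5 higher with the mean of all probe sets. Atp5d, a subunit of the central stalk, had 1933.4 on the high-fat diet and 2263.5 on chow, 1.17-fold lower, and both its probe sets were lower. Atp5a1 and Atp5b encode the subunits that alternate in the head. Atp5a1 had 2252.1 on the high-fat diet and 2488.9 on chow, while its other probe sets differed by 0.035 and, in the weakest, by 0.72. With the mean of its probe sets Atp5a1 stood at 0.20, so no direction can be given for it. Atp5b, which carries the catalytic sites, had 3946.8 on the high-fat diet and 3555.1 on chow. Atp5c1, the rotating shaft, had 2176.4 on the high-fat diet and 2364 on chow, and Atp5e had 772.6 on the high-fat diet and 721 on chow.

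The c-ring, the rotor turned by protons, is built from 1 mature protein that several genes encode with different import signals. Atp5g1 had 203 on the high-fat diet and 271.2 on chow, 1.34-fold lower, beyond the probe SD of 0.29. Atp5g2 had 1093.3 on the high-fat diet and 1216.9 on chow. Atp5g3 had 6030.8 on the high-fat diet and 4940.5 on chow, 1.22-fold higher, so the ring genes differed among themselves. In the peripheral stalk, which holds the head still, Atp5pb had 2179.4 on the high-fat diet and 1816 on chow, 1.20-fold higher in its brighter probe set and also higher in the other. Atp5o had 1611.7 on the high-fat diet and 1517.6 on chow, Atp5h had 1752.9 on the high-fat diet and 1883.1 on chow, and Atp5j had 1913 on the high-fat diet and 1952.1 on chow.

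The other membrane subunits of complex V, small proteins that help the synthase to form dimers or keep it stable, were higher in 4 of 5 genes, with a median of 0.26 that stayed between 0.14 and 0.28 over all settings tried. Atp5md had 592.8 on the high-fat diet and 465.8 on chow, 1.27-fold higher. Atp5mpl had 1474.6 on the high-fat diet and 1228.9 on chow, 1.20-fold higher. Atp5j2 had 2826.7 on the high-fat diet and 2366.5 on chow, 1.19-fold higher, and all 3 of its probe sets were higher, by 0.087 to 0.26 on the log2 scale. Atp5l had 1488.9 on the high-fat diet and 1348.2 on chow, and Atp5k was level with 3051 on the high-fat diet and 3069.7 on chow. The inhibitor of the synthase, Atpif1, is not chosen by the symbol rule; it differed by -0.015, a sign that turned under each of the 3 scalings, and by 0.81 with plain probe sets.

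**Figure D4:**
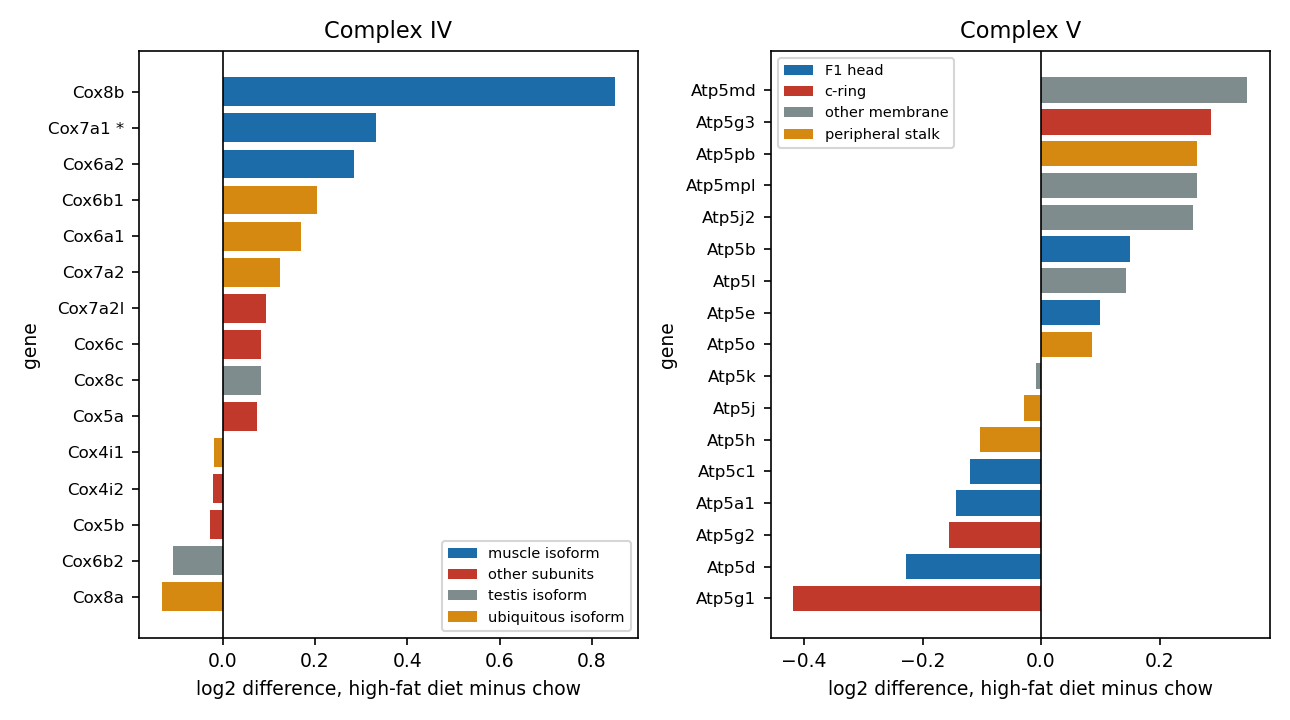
Log2 difference between the high-fat diet and chow arrays (horizontal axis, bars from 0) for each measured gene of complex IV (left) and complex V (right), coloured by isoform type or part of the complex. The asterisk marks Cox7a1, above the floor on the high-fat diet array only. The muscle forms head complex IV, up to 0.85 for Cox8b, and complex V runs from 0.35 for Atp5md to -0.42 for Atp5g1.

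Genes that build the complexes without being part of them were described from lists written with earlier results of these data known. Of 15 assembly genes of complex I, 10 were lower and 5 higher, and their median was -0.065. Ecsit had 138.6 on the high-fat diet and 194.6 on chow, 1.40-fold lower, Ndufaf5 had 60.4 on the high-fat diet and 84.5 on chow, and among the higher genes Tmem126b had 78.2 on the high-fat diet and 53.1 on chow and Ndufaf3 had 257.7 on the high-fat diet and 215.8 on chow. Of the 4 assembly genes of complex II 3 were higher. Sdhaf4, which protects the flavoprotein during assembly, had 431.7 on the high-fat diet and 277.3 on chow, 1.56-fold higher. Sdhaf3 had 72.6 on the high-fat diet and 57.6 on chow, and Sdhaf1, which serves the iron-sulfur subunit, was lower with 126.1 on the high-fat diet and 152.6 on chow.

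For complex III, Bcs1l, the chaperone that inserts the Rieske protein, was beyond 2-fold, with 54.2 on the high-fat diet and 110.5 on chow in its only probe set, 2.04-fold lower. Of the 5 measured genes of that list 3 were lower, and all 5 with the mean of all probe sets, with a median of -0.23 in each case. Ttc19 had 59.2 on the high-fat diet and 76.9 on chow, Uqcc2 had 441.9 on the high-fat diet and 402.8 on chow, and Uqcc1 had 197.3 on the high-fat diet and 197 on chow. The other probe sets of Uqcc2 and Uqcc1 were lower, at -0.30 and -0.18. The 19 measured assembly genes of complex IV were 10 lower and 9 higher, and 12 lower under quantile normalization, with a median of -0.043. Sco2, a copper chaperone, had 62.6 on the high-fat diet and 95.7 on chow, 1.53-fold lower, and Sco1 had 28.5 on the high-fat diet and 34 on chow, near the floor. Cox16 had 376.2 on the high-fat diet and 274.7 on chow, 1.37-fold higher, and Cox19 had 560.8 on the high-fat diet and 414.2 on chow, 1.35-fold higher. Of 3 assembly genes of complex V, Atpaf1 had 94.1 on the high-fat diet and 72.3 on chow, Tmem70 had 323.4 on the high-fat diet and 286.9 on chow, and Atpaf2 had 169 on the high-fat diet and 216.2 on chow. The other probe set of Atpaf1 went the other way, with 56.3 on the high-fat diet and 77.3 on chow, and with the mean of probe sets the median of these 3 genes turned to -0.039, against 0.17. Of the subunits encoded in mitochondrial DNA, ND5, a proton pump subunit of complex I, was the one matched by symbol, and its difference was 0.19.

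Cycs, somatic cytochrome c, the mobile carrier between complexes III and IV, had 2595.1 on the high-fat diet and 1830.3 on chow, 1.42-fold higher. Its next 2 probe sets were also higher, with 1701.7 and 815.1 on the high-fat diet against 1460.4 and 673.4 on chow, while a weak probe set near the floor was lower, with 31.9 on the high-fat diet and 46 on chow. The list of cytochrome c and ubiquinone synthesis as a whole had 7 higher and 6 lower of 13 measured genes, with a median of 0.078 that turned to -0.056 with each gene's least different probe set. Coq5, a methyltransferase of ubiquinone synthesis, had 115.9 on the high-fat diet and 178.5 on chow, 1.54-fold lower, and Coq6, a hydroxylase of it, had 104.3 on the high-fat diet and 139.9 on chow. Coq2, which attaches the isoprenoid tail, had 383 on the high-fat diet and 323.9 on chow.

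Regulators of nuclear and mitochondrial genes of the chain numbered 10 lower and 2 higher, beside 52.9% lower among all measured genes, and 8 lower and 4 higher with the least different probe sets. Their median of -0.24 lay between -0.26 and -0.17 over the settings. Ppargc1b, the coactivator PGC-1beta, had 112.7 on the high-fat diet and 225 on chow in its only probe set, a difference of -0.997 that falls just short of 2-fold. Gabpa, an ETS factor also called NRF2, had 180.2 on the high-fat diet and 233.4 on chow. Its other probe set was near level, with 52.4 on the high-fat diet and 53.7 on chow. Esrra, the estrogen-related receptor alpha, had 84.5 on the high-fat diet and 104.8 on chow, lower in both its probe sets. Ppargc1a, the coactivator PGC-1alpha, was level in its brightest probe set with 54.3 on the high-fat diet and 52.6 on chow, and the others were above the floor on 1 array at most. Nrf1 had 108.9 on the high-fat diet and 113.5 on chow, but its other measured probe sets were higher, by 0.056 and 0.033. Tfam, which packs and transcribes mitochondrial DNA, had 125.6 on the high-fat diet and 142.9 on chow, and its other probe set was also lower. Tfb1m, an enzyme that modifies mitochondrial ribosomal RNA, was higher, with 61.6 on the high-fat diet and 48.8 on chow. Among 7 general mitochondrial genes, 5 lower and 2 higher, the median was -0.053. Vdac1, a channel of the outer membrane, had 1538.6 on the high-fat diet and 1329.6 on chow, Tomm20 had 1875.7 on the high-fat diet and 1722 on chow, Vdac2 had 1179 on the high-fat diet and 1258.4 on chow, and Vdac3 had 776.6 on the high-fat diet and 818.1 on chow.

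**Figure D5:**
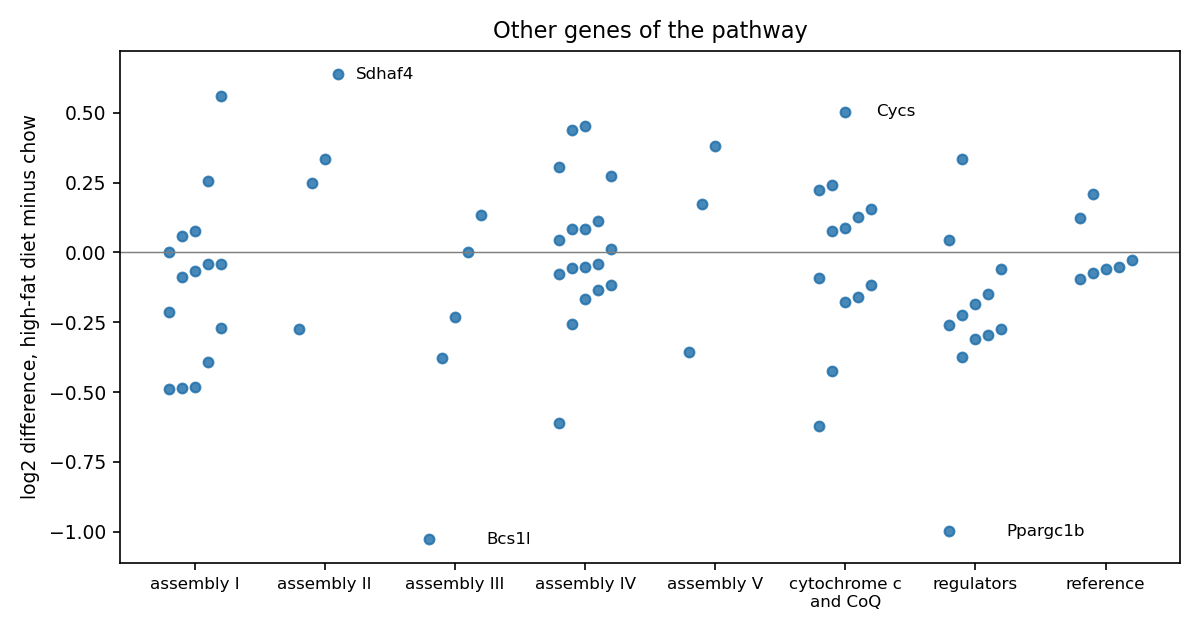
Log2 difference between the high-fat diet and chow arrays (vertical axis) for genes above the floor on both arrays in the lists of assembly genes by complex, cytochrome c and ubiquinone (CoQ) synthesis, regulators and general mitochondrial genes. Bcs1l at -1.03 and Ppargc1b at -0.997 lie lowest, and Sdhaf4 at 0.64 lies highest.

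Marker genes of the cells in the fat pad were read beside these values. The labelled tissue carried its defining genes, with Adipoq at 8718.4 on the high-fat diet and 8372.1 on chow and Fabp4 at 11559.7 on the high-fat diet and 10726.6 on chow. The 6 adipocyte markers summed to 37890.7 on the high-fat diet and 35245.9 on chow, with 4 higher and 2 lower (among them Lep, with 3099.8 on the high-fat diet and 2001.2 on chow, and Pparg, with 795.6 on the high-fat diet and 1115.6 on chow), but 2 higher and 4 lower under lowess centring. The 4 macrophage markers summed to 5529.2 on the high-fat diet and 5064 on chow, with all 4 higher, and 3 of 4 under quantile normalization and lowess centring. The 5 mesothelial markers summed to 756.1 on the high-fat diet and 1180.5 on chow, with 4 lower and Msln higher. Of these, Krt19 had 83.7 on the high-fat diet and 166.2 on chow and Wt1 had 38.9 on the high-fat diet and 70 on chow. The part of these cells in the differences of the respiratory chain genes was not tested.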

How the data were processed

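The authors deposited, for each array, a linear intensity of every probe set, from biotin-labelled cRNA made of 10 µg total RNA per the labels' protocols. How these intensities were summarised and scaled is not given in the sources used here. Means after trimming 2% at each end were 99.6 on the high-fat diet and 99.6 on chow, so intensities were used as deposited. Genes were named from the platform annotation of 2016, and all 80 measured members matched RefSeq by gene ID, with 0 symbols changed.

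The floor was each array's 40th percentile, and the thresholds were 0.32 on the log2 scale and 2-fold. The text names all genes of complex II and, in the other complexes, the 5 largest differences in each direction, the 3 of highest signal, genes above the floor on 1 array, genes whose probe sets differ in sign by over 0.3 between them, tissue forms, c-ring genes and the inhibitor, and from each list of other pathway genes the 2 largest differences in each direction. Marker lists are given by counts and sums, with genes named after their values were seen. Other genes named, such as Nrf1, Tfam and the rest of the complex I modules, were added for their role. The members, modules and lists were chosen with earlier results of these data known. Alternatives were 2 other floors (20th and 60th percentile), log2(intensity + 16) without a floor, 3 scalings (median centring, quantile normalization, lowess centring) and 3 choices of probe set (the mean of all, the least different, and plain ones only, whose names carry no letter for cross-matching). No test was possible with 1 array per diet, and the number of arrays limits the precision. The steps were tested on simulated data and run in Python 3.11.15 with numpy, pandas and statsmodels.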

Additional observations from a re-analysis of the deposited data

How the results depend on the processing

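No paired analysis was possible because each diet has 1 array. With 9 alternatives, medians were called unmoved within 0.1 and counts within 1.5 times. Averaging all measured probe sets turned the median of complex II to 0.048 and of complex III to 0.064, and plain probe sets turned complex III to 0.19 and moved the complex I matrix arm to -0.33. Quantile normalization turned complex V to -0.014 and the complex I membrane arm to -0.057, lowess centring turned that arm to -0.044, and median centring turned the median of all 80 genes to 0.0038. The settings for the 2 arms were added after the data were seen. Genes lower by 0.32 or more, 5 as reported, numbered 12 under quantile normalization, 9 under lowess centring and 3 with each gene's least different probe set, and those higher, 4 as reported, numbered 2 with the floor at the 60th percentile. With the floor at the 20th percentile, 2 genes were 2-fold different: Cox7a1 at 1.31 and Cox7c, which the higher floor leaves out. The cause of these moves was not tested. Of 697 values of single genes under the alternatives, 681 stayed within the probe SD of their signal level and 16, from 13 genes, did not. No value of a gene past 0.32 turned its sign. Near the floor, as in Cox6a2, Cox6b2, Cox7a1 and Ndufb4, signal over background limits what a difference can show.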
